A study of Bombyx mori with 2 samples.

Results

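Alternative first exons were compared between hindwing and forewing buds of the silkworm *Bombyx mori*. A locus joined the multi-exon transcripts of both assemblies that had 1 or more exon bases in common on one strand. A locus was taken where both assemblies held transcripts that began in at least 2 different first exons that did not overlap, each with the same first intron in both assemblies, and that all spliced onto the same second exon. There were 184 such loci among 10498 loci with multi-exon transcripts in both libraries and 11987 such loci in all. They held 381 alternative first exons, which are called distal (farthest upstream of the second exon) and proximal here.

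The hindwing buds came from the third thoracic segment and the forewing buds from the second thoracic segment of larvae of the strain Daizo in the IV instar, fed on mulberry leaves. RNA of 80 pooled buds made 1 library per wing bud, so that both groups share strain, stage and diet, and wing bud and library cannot be told apart. No group had a replicate. All differences are therefore differences between 2 libraries, with no test and no p-value, and the intervals printed are built from the bounds that Cufflinks gave each transcript. Such intervals hold the error of counting and of assigning fragments inside 1 library, and nothing of the spread between animals. Depth, as read from the bounds, was 43527500 fragments in the hindwing and 37192500 fragments in the forewing library. The loci carry no gene names here, so the tissue could not be checked against marker genes.

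A gene with alternative first exons can begin its RNA at more than 1 promoter, and each promoter can answer to its own enhancers and transcription factors. The transcripts then share their downstream exons and differ in the 5′ untranslated region or in the first codons of the protein. In *Drosophila*, the ecdysone receptor gene makes its A and B isoforms, which differ in the N-terminus, from separate promoters, and the Hox gene *Antennapedia* is also transcribed from alternative promoters. A wing bud is a folded larval epithelium whose cells answer to ecdysone at the moults and to the Hox proteins of their segment, so that the choice of promoter is one of the places where a hindwing and a forewing bud could differ. In total RNA from whole buds, fewer cells that use a first exon and less RNA from it in each cell cannot be told apart.

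The usual form was a pair of first exons. There were 175 loci with 2 first exons, 7 with 3 and 2 with 5. The loci lay on 81 scaffolds, 97 on the + strand and 87 on the − strand. The loci spanned long stretches: the median was 22169.5 bases over the 184 loci, against 11235.5 bases over the 844 other loci with at least 2 first introns in both assemblies and 7242 bases over all 10498 loci. The median number of exons was 6 over the 184 loci, 7 over the 844 loci and 5 over all loci. The level of a locus is given as the sum over its transcripts of the midpoint of the deposited bounds, in FPKM (fragments per kilobase of transcript and a fixed number of mapped fragments). Its median over the 184 loci was 17.2 FPKM in hindwing buds and 16.0 FPKM in forewing buds, against 11.6 FPKM in each wing bud over all loci.

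Distal first exons were longer than proximal ones in 109 of the 175 pairs. The median length was 306 bases for the distal exon (range 38 to 2938) and 203 bases for the proximal exon (range 14 to 2182), over the widest extent in either assembly. The first intron had a median of 9125 bases behind the distal exon and of 1532 bases behind the proximal exon. The longest such intron, of 276503 bases, lay behind a distal exon. Some first exons were assembled very short: 40 of the 381 were under 50 bases in at least 1 assembly, and could be longer in the other.

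The distance between the 5′ ends of the 2 most used first exons of a locus had a median of 5017 bases, with quartiles at 652.5 and 18634 bases. The range was 25 to 275884 bases, so that some pairs adjoin and others lie in different parts of a scaffold. They were under 1 kb in 58 loci, from 1 kb to under 10 kb in 60 loci and 10 kb or more in 66 loci. These ends are the ends of assembled transcripts and not mapped start sites: the RNA was primed with random hexamers, and the 5′ ends of the same first exon differed between the assemblies by a median of 18 bases and by at most 50 bases in 280 of 381 exons. Measured between the donor sites, which are fixed by splicing, the median distance was 4825 bases.

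**Figure D1:**
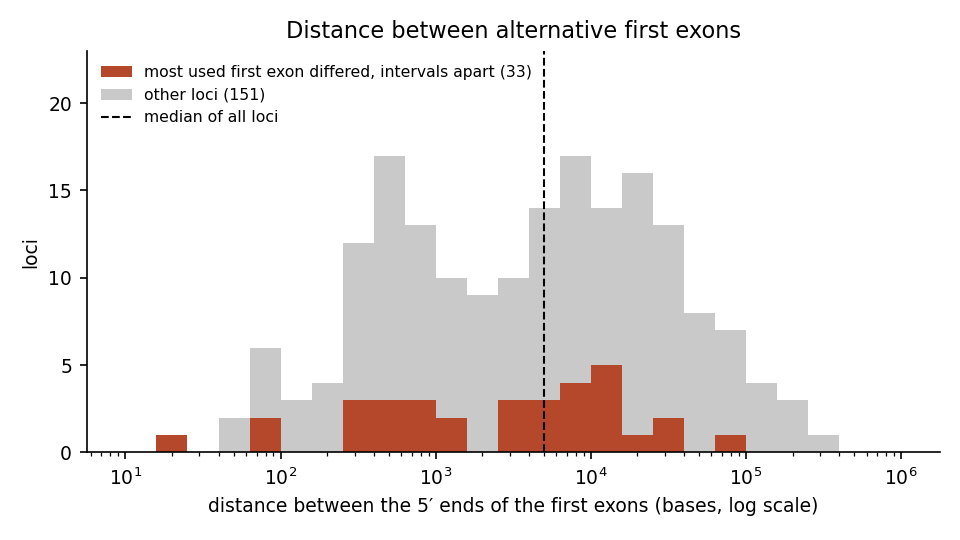
Histogram of the 184 loci by the distance between the 5′ ends of their 2 most used first exons, in bases on a log axis. Loci whose most used first exon differed between the wing buds with share intervals apart (33) are stacked below the others (151), the dashed line is the median of 5017 bases, and both kinds of locus occur under 1 kb and above 10 kb.

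The locus with the widest spacing lay at nscaf2529:4583656-4869979 on the + strand and had 5 exons. Its distal first exon (4583656-4583972) stood 275884 bases upstream of its proximal first exon (4859540-4859710) and was the most used in both wing buds. The distal exon had 26.2 FPKM in hindwing buds and 21.9 FPKM in forewing buds, and the proximal exon had 6.30 FPKM in hindwing buds and 8.03 FPKM in forewing buds. The distal share was thus 80.6% in hindwing buds (interval 78.1 to 83.1) and 73.1% in forewing buds (70.8 to 75.4). In each wing bud the distal exon was thus the more used of the pair, and no spliced locus was assembled between the first exons in either. The pair made up 100% of the level of the locus in hindwing buds and 69.8% in forewing buds, where other transcripts of the locus held the rest.

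Among loci with at least 5 FPKM over their alternative first exons in both libraries, the next widest spacing, 161546 bases, was at nscaf2886:600268-787854 on the + strand. There the first exons were used nearly evenly, with a distal share of 57.3% in hindwing buds (47.3 to 67.8) and 51.8% in forewing buds (48.3 to 55.2), and these intervals overlapped. The pair made up 59.0% of the level of the locus in hindwing buds and 100% in forewing buds. By fragments (midpoint times transcript length, in place of FPKM) the change in proximal share was −13.8 points, against −5.51 points by FPKM. Outside the limit of 5 FPKM in both libraries, first exons 198375 bases apart were assembled at nscaf2511:4611500-4902525 on the − strand, with 5.68 FPKM in hindwing buds and 3.91 FPKM in forewing buds.

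At the other end of the range, 3 first exons lay side by side at nscaf1690:4353664-4358207 on the + strand, the 2 most used of them 25 bases apart. The exon next to the second exon, 17 bases long in both assemblies, took 57.5% in hindwing buds (52.0 to 63.0) and 29.9% in forewing buds (24.8 to 35.4). It held an estimated 16.8 hindwing and 7.08 forewing fragments (midpoint times exon length times depth). At nscaf2823:3767152-3769437 on the − strand, first exons with 5′ ends 53 bases apart kept their shares, the distal one taking 75.9% in hindwing buds (71.8 to 79.8) and 71.9% in forewing buds (66.7 to 76.8).

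The choice of exon showed no steady trend with distance in these pairs. The part of pairs with the distal exon most used was highest under 1 kb (65.5% in hindwing and 69.1% in forewing buds). It was lowest from 1 kb to under 10 kb (47.4% in hindwing and 45.6% in forewing buds). The distal exon was the most used in 36 hindwing and 38 forewing cases of 55 pairs under 1 kb, in 27 hindwing and 26 forewing cases of 57 pairs from 1 kb to under 10 kb, and in 37 cases in each wing bud of 63 pairs at 10 kb or more. The largest share change of a locus had a median of 6.99 points under 1 kb, 8.79 points from 1 kb to under 10 kb and 7.19 points at 10 kb or more.

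The space between the first exons held few other spliced loci, but it was often short. The median distance was 5017 bases, against a median span of 7242 bases over all 10498 loci, and no like stretches were counted for comparison. A spliced locus lay wholly between the first exons in 3 of the 184 loci, on the same strand in 1 and on the opposite strand in 2, all with first exons 10 kb or more apart. An unspliced transcript lay there in 24 loci. A start on the opposite strand within 1 kb upstream, as in a divergent gene pair, was assembled for 13 of 175 distal exons (7.43%) and 4 of 175 proximal exons (2.29%), against 7.76% of all 10498 loci. Of the 381 first exons, 9 were also an internal exon of another transcript of their locus.

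Usage of a first exon was the summed midpoint, in FPKM, of the transcripts that began in it, and its share was its usage over that of all alternative first exons of the locus. Summed over these exons, the level had a median of 13.8 FPKM in hindwing buds (range 0.871 to 964) and 13.8 FPKM in forewing buds (range 0.886 to 1183). Neither end of the locus dominated. The distal exon was the most used in 100 hindwing and 101 forewing cases of 175 pairs, and its share had a median of 54.4% in hindwing buds (quartiles 36.9 and 71.9) and 53.4% in forewing buds (quartiles 35.6 and 69.9). The less used exon of a pair held at least 20% in both wing buds in 124 of 175 pairs. The lowest share of any exon was 9.45% for hindwing and 10.9% for forewing buds. Exons that an assembly left out are outside this range and outside the count of pairs, since the choice of loci needs each first exon in both assemblies. How often a first exon is little used can therefore not be read from these loci. A set of this kind was assembled in the hindwing library alone at 134 loci and in the forewing library alone at 132 loci.

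The share of the distal exon in one wing bud went with its share in the other (Pearson r = 0.64 and Spearman rho = 0.63 across 175 pairs, as a description, since the points share both libraries). The largest share change of a locus had a median of 7.58 points (quartiles 3.31 and 19.5, highest 66.2). It was under 5 points in 67 loci, under 10 points in 107 and at least 20 points in 45. Among these 45, the share intervals of the 2 wing buds were apart in 39.

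**Figure D2:**
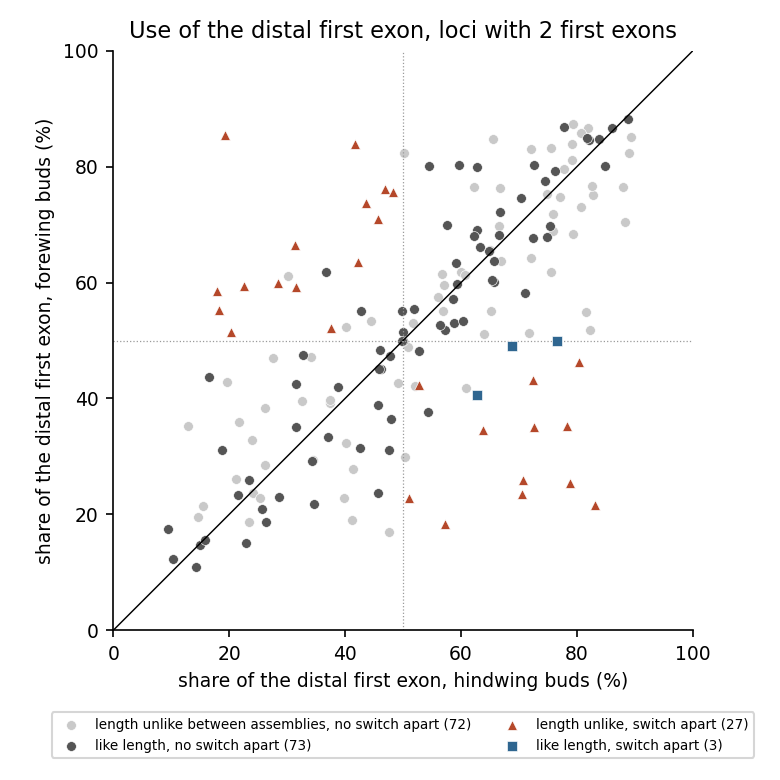
Share of the distal first exon, in percent, in hindwing buds (horizontal) and forewing buds (vertical) for the 175 loci with 2 first exons, with the line of equal use and dotted lines at 50%. Dark points, whose first exons had like lengths in both assemblies, lie closer to the line than light points, and most triangles (switches with intervals apart, unlike lengths) lie far from it.

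A part of the loci used their first exons in nearly the same proportion in both wing buds by FPKM. In 44 of the 152 loci with at least 5 FPKM over their alternative first exons in both libraries, at least 2 first exons held 20% or more in both wing buds and no share changed by 5 points. The 4 most abundant of these are given here. The clearest difference in level among them was at nscaf1690:5806854-5855430 on the − strand. Another spliced locus, on the same strand, lay wholly between the first exons of this 8-exon locus. Its distal exon (5855199-5855430) had 148.2 FPKM in hindwing buds and 41.7 FPKM in forewing buds, and its proximal exon (5836076-5836616), 18814 bases downstream, had 104.7 FPKM in hindwing buds and 31.2 FPKM in forewing buds. Both first exons were thus higher in the hindwing library by more than 2-fold (log2 ratio of the locus, with 1 added, 1.56), while the distal share was 58.6% in hindwing buds (57.8 to 59.4) and 57.2% in forewing buds (54.4 to 60.0). The intron chains of this locus differed between the assemblies, and by fragments its distal share changed by 10.5 points, against 1.35 points by FPKM, so that it was steady by FPKM and not by fragments. Of the 10 loci with a 2-fold difference in level, it was the only 1 in which the usage of both first exons differed 2-fold in the same direction.

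At nscaf2995:190904-197720 on the + strand, nearly adjoining first exons of 66 and 84 bases were assembled with the same ends in both libraries. The distal exon had 90.8 FPKM in hindwing buds and 98.7 FPKM in forewing buds, which were 59.4% (57.2 to 61.4) and 59.7% (57.6 to 61.8) of the use. At nscaf2859:1468400-1491890 on the + strand, a 17-exon locus with first exons 5880 bases apart, the distal share was 70.4% in hindwing buds (67.8 to 72.9) and 74.5% in forewing buds (72.8 to 76.2), a change of −4.14 points by FPKM and −5.53 points by fragments. This pair made up 48.1% of the level of the locus in hindwing buds and 100% in forewing buds. The locus as a whole had 159.7 FPKM in hindwing buds and 79.8 FPKM in forewing buds, and its intron chains differed between the assemblies. At nscaf2913:16501-19668 on the − strand, a 2-exon locus with first exons 860 bases apart, the distal share was 38.7% in hindwing buds (34.8 to 42.7) and 41.9% in forewing buds (37.5 to 46.4). In these 3 loci the intervals of the 2 wing buds overlapped.

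The most used first exon differed between the wing buds in 49 of the 184 loci (26.6%). Among all 1028 loci with at least 2 first introns in both assemblies, called in the same way from the first introns, 24.0% differed. In 25 of the 49 the most used exon of hindwing buds lay upstream of that of forewing buds, and in 24 downstream of it. Of the 1028 loci, 11.9% differed toward the upstream intron in hindwing buds and 12.2% toward the downstream one. The share intervals were apart in 33 of the 49 (17.9% of the loci), 16 of them toward the upstream exon in hindwing buds and 17 toward the downstream one. In the background of 1028 loci these shares were 15.9%, 7.49% and 8.37%. A largest share change of at least 20 points was seen in 24.5% of the loci and in 19.0% of the background. The shares of switches lay close to those of the background, which includes the 184 loci, and the directions were nearly even.

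The share change of the 33 switches with intervals apart had a median of 31.2 points (range 10.4 to 66.2). In 27 of the 30 such loci with a pair of first exons, 1 exon was higher and the other lower in the hindwing library. Such opposite signs follow largely from the choice of loci whose shares crossed, and are no separate result. Across all 175 pairs, the log2 usage ratios of the 2 exons had a Pearson r of −0.20, as a description. Both exons changed by at least 2-fold in opposite directions in 2 of the 30 chosen pairs, a single exon changed by at least 2-fold in 14, and neither in 14. The level of the locus as a whole differed little: its median fold was 1.18 in either direction over the 33 loci and 1.14 over all 184. In 19 of the 33 the assemblies held the same intron chains in both libraries, against 123 of all 184.

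The length at which a first exon was assembled moved with these switches. Of the 381 first exons, 82 were more than 1.2 times longer in the hindwing assembly and 59 more than 1.2 times longer in the forewing assembly. In 24 of the 30 two-exon switches with intervals apart, and in 35 of the 42 pairs with a change of at least 20 points, the share was lower in the library where the exon was the longer one relative to its partner. Across the 175 pairs, the log2 length ratio of hindwing over forewing (distal minus proximal) and the change in distal share had a Pearson r of −0.59 and a Spearman rho of −0.54, as a description. FPKM divides by the assembled length of the whole transcript, and length and FPKM come from the same assembly. By fragments (midpoint times transcript length) there were 50 switches, 33 of them with intervals apart, against 49 and 33 by FPKM. The part of length in these differences was not tested.

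**Figure D3:**
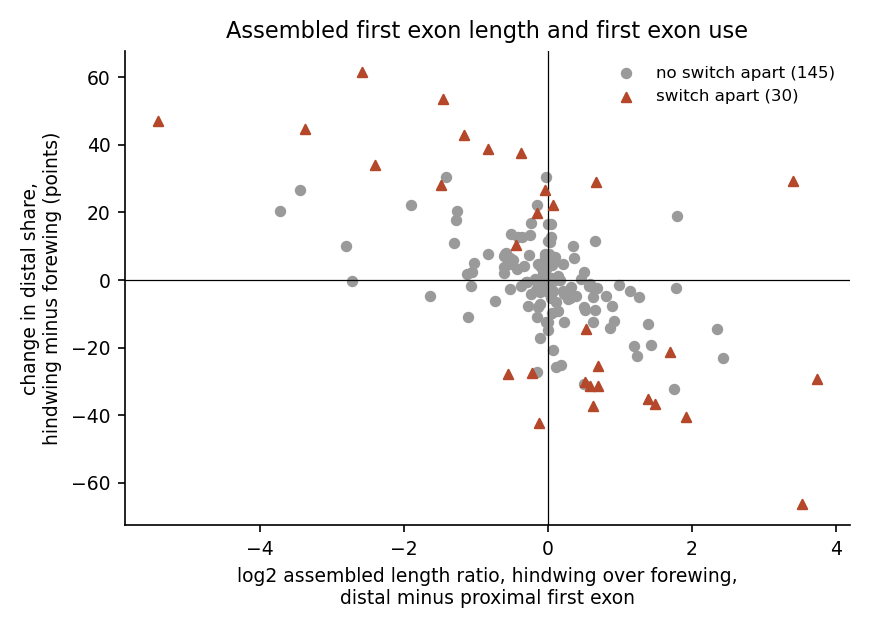
Change in the share of the distal first exon, hindwing minus forewing, in points, against the log2 ratio of assembled first exon length, hindwing over forewing, distal minus proximal exon, for 175 loci with 2 first exons. Most of the 30 switches with intervals apart (triangles) lie in the upper left and lower right, where the share was lower in the library with the longer exon, and 145 other loci are grey.

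In 80 of the 184 loci each first exon was of like length in both assemblies, within 1.2 times, a limit chosen after the data were seen. Their first exon use was closer between the wing buds. The largest share change had a median of 5.19 points, against 11.8 points in the other 104 loci, and 39 of the 80 changed by under 5 points. The Pearson r between the distal shares was 0.88 across their 76 pairs. The most used exon differed in 11 of the 80 (13.8%), against 17.9% of 452 background loci of like length. The intervals were apart in 3 (3.75%), against 9.29% of that background, and the change was at least 20 points in 7 (8.75%), against 10.6%. In the 104 loci of unlike length the most used exon differed in 38 (36.5%), with intervals apart in 30 (28.8%).

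The 3 switches of like length all favoured the distal exon in hindwing buds, and they were singled out after their values were seen. At nscaf2830:35020-56125 on the − strand, a 4-exon locus with first exons 11471 bases apart, the distal exon (56004-56125) had 10.7 FPKM in hindwing buds and 7.72 FPKM in forewing buds. Its proximal exon (44523-44654) had 3.26 FPKM in hindwing buds and 7.74 FPKM in forewing buds. The distal share was 76.6% in hindwing buds (67.6 to 84.8) and 49.9% in forewing buds (38.9 to 61.1). Within this pair, forewing buds thus used both exons evenly, and hindwing buds mostly the upstream one. The pair made up 100% of the level of the locus in hindwing buds and 76.9% in forewing buds. The distal exon was assembled at 122 bases in the hindwing library and 119 bases in the forewing library, with the same intron chains in both.

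At nscaf2686:685030-698134 on the − strand, a 9-exon locus with first exons 1448 bases apart, the distal exon was 89 bases long in both assemblies and had 5.86 FPKM in hindwing buds and 2.97 FPKM in forewing buds. The proximal exon had 3.49 FPKM in hindwing buds and 4.35 FPKM in forewing buds, and the distal share was 62.7% in hindwing buds (55.4 to 69.5) and 40.6% in forewing buds (33.4 to 47.9). This was the only 1 of the 3 loci in which the forewing interval, too, lay on one side of 50%. At nscaf2674:5653743-5693057 on the + strand, a 16-exon locus with first exons 327 bases apart, the distal share was 68.9% in hindwing buds (65.0 to 72.5) and 49.1% in forewing buds (43.5 to 54.7). The pair made up 100% of the level in hindwing buds at both loci, but 66.6% in forewing buds at nscaf2686 and 63.3% at nscaf2674. Other transcripts of these loci held the rest and are outside the forewing shares. The distal exons of the 3 loci held 22.7 to 56.8 fragments in the hindwing library and 9.84 to 34.2 fragments in the forewing library. In 2 of the 3 the intron chains differed between the assemblies.

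**Figure D4:**
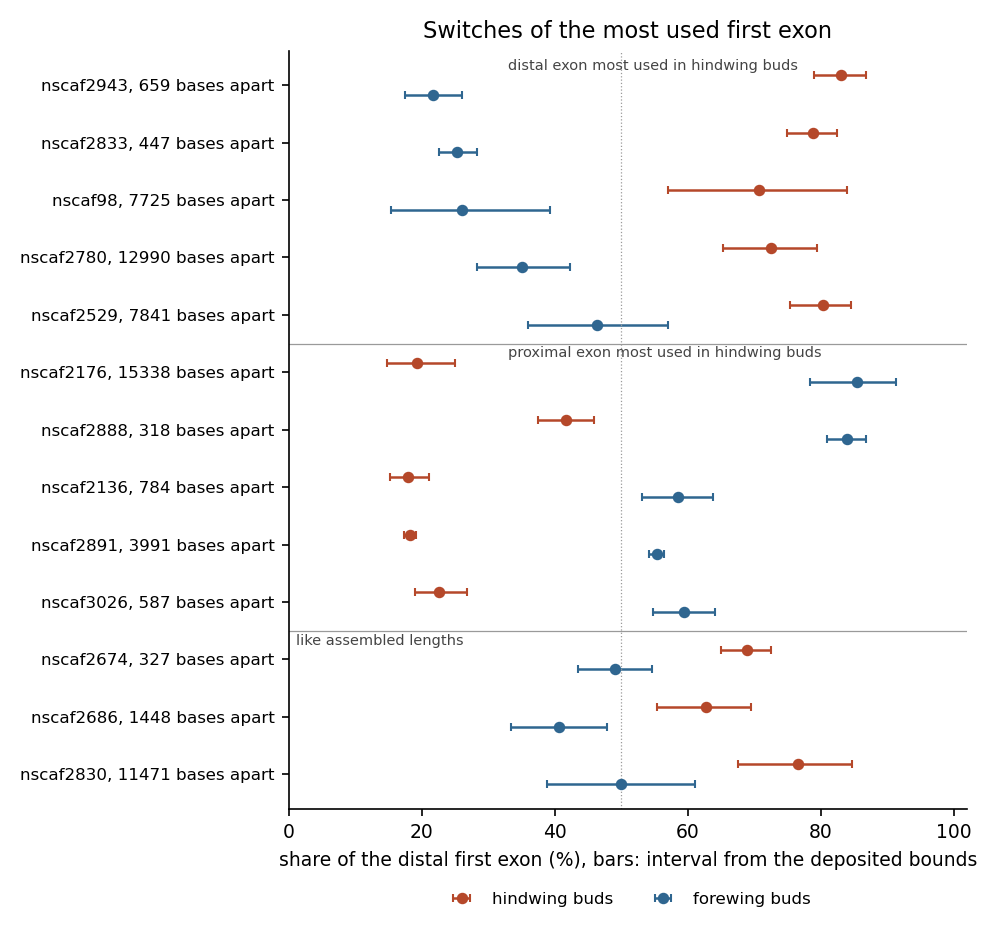
Share of the distal first exon, in percent, with hindwing buds above forewing buds in each locus and bars for the interval from the deposited bounds. The 5 largest switches with intervals apart in each direction come first, among loci with at least 5 FPKM over their alternative first exons in both libraries. The 3 switches of like assembled length come last, with shares of 62.7% to 76.6% in hindwing buds and 40.6% to 49.9% in forewing buds in these 3.

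Besides these, 2 loci of like length kept their order but changed by at least 20 points with intervals apart, and they too were picked out by their values. At nscaf3097:125998-152601 on the + strand, an 8-exon locus with first exons 16944 bases apart, the distal exon had 5.39 FPKM in hindwing buds and 1.49 FPKM in forewing buds, and the proximal exon 6.41 FPKM in hindwing buds and 4.82 FPKM in forewing buds. The proximal exon was the more used in both, with a distal share of 45.7% in hindwing buds (38.8 to 52.7) and 23.6% in forewing buds (15.7 to 32.8). At nscaf3099:2759892-2769766 on the + strand, with first exons 568 bases apart, the levels were low, 3.01 FPKM in hindwing buds and 2.97 FPKM in forewing buds over both exons. The distal exon was the more used there, with 54.4% in hindwing buds (42.2 to 66.5) and 80.2% in forewing buds (69.3 to 89.5).

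The largest switches were among loci of unlike length. Ranked by share change among loci with at least 5 FPKM in both libraries, the 5 largest toward each exon all had a first exon whose length differed by more than 1.2 times. The largest of all by FPKM favoured the proximal exon in hindwing buds, at nscaf2176:3225303-3241974 on the + strand, a 2-exon locus with first exons 15338 bases apart. Its distal exon (3225303-3225885) had 7.94 FPKM in hindwing buds and 60.9 FPKM in forewing buds, and its proximal exon (3240641-3240750) had 33.2 FPKM in hindwing buds and 10.3 FPKM in forewing buds. The distal share was 19.3% in hindwing buds (14.7 to 25.0) and 85.5% in forewing buds (78.4 to 91.3). Both exons thus differed by more than 2-fold in opposite directions. The upstream one was assembled at 583 bases in the hindwing library and at 53 bases in the forewing library. By fragments the change in distal share was −43.5 points, against −66.2 points by FPKM, and on that measure it was smaller than the 58.5 points at nscaf2943.

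The second was at nscaf2888:3983165-3992669 on the + strand, an 11-exon locus with first exons 318 bases apart. The distal share was 41.7% in hindwing buds (37.5 to 45.8) and 84.0% in forewing buds (80.9 to 86.9), with the distal exon 151 bases long in the hindwing assembly and 104 in the forewing one. Here the proximal exon, too, was longer in the hindwing assembly, 60 against 38 bases, and held 32.0 fragments in hindwing buds and 4.54 in forewing buds. At nscaf2136:2813843-2815441 on the + strand the distal share was 18.0% in hindwing buds (15.2 to 21.0) and 58.5% in forewing buds (53.1 to 63.8), with a distal exon of 708 bases in the hindwing assembly and 141 in the forewing one.

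By the level summed over its alternative first exons, the most abundant switch was at nscaf2891:2692061-2710644 on the − strand, a 3-exon locus with first exons 3991 bases apart. The distal exon (2710212-2710644) had 165.2 FPKM in hindwing buds and 641.3 FPKM in forewing buds, and the proximal exon (2706482-2706653) had 743.2 FPKM in hindwing buds and 517.8 FPKM in forewing buds. The distal share was 18.2% in hindwing buds (17.3 to 19.1) and 55.3% in forewing buds (54.2 to 56.5). The intervals were narrow, with an estimated 3114 fragments in the distal exon in hindwing buds and 4341 in forewing buds. They do not hold the choice of measure. With the deposited FPKM in place of the midpoint, the distal share changed by −32.1 points, against −37.1 points. The distal exon was assembled at 433 bases in the hindwing library and 182 bases in the forewing library, and the proximal exon at 172 bases in the hindwing library and 112 bases in the forewing library. The fifth, at nscaf3026:2174361-2180860 on the + strand, had a distal share of 22.6% in hindwing buds (18.9 to 26.8) and 59.4% in forewing buds (54.8 to 64.1). It was also higher in the hindwing library as a locus, 53.7 FPKM in hindwing buds and 15.9 FPKM in forewing buds. Its distal exon had much the same level, 9.72 FPKM in hindwing buds and 9.48 FPKM in forewing buds, while the proximal exon had 33.3 FPKM in hindwing buds and 6.47 FPKM in forewing buds. This distal exon was 568 bases long in the hindwing assembly and 190 in the forewing one.

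Toward the distal exon in hindwing buds, the largest switch was at nscaf2943:930465-938777 on the + strand, a 9-exon locus with first exons 659 bases apart. The distal exon (930465-931080) had 7.88 FPKM in hindwing buds and 2.02 FPKM in forewing buds, and the proximal exon (931124-931285) had 1.61 FPKM in hindwing buds and 7.32 FPKM in forewing buds. The locus as a whole was level, with 9.48 FPKM in hindwing buds and 9.33 FPKM in forewing buds. The difference lay in which first exon was used, with a distal share of 83.1% in hindwing buds (79.0 to 86.8) and 21.6% in forewing buds (17.4 to 26.1). At this locus the distal exon was 109 bases long in the hindwing assembly and 616 bases in the forewing one, and the proximal exon 162 bases in the hindwing assembly and 153 in the forewing one.

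The next was at nscaf2833:182830-189723 on the + strand, with first exons 447 bases apart and a distal share of 78.8% in hindwing buds (74.9 to 82.5) and 25.3% in forewing buds (22.5 to 28.2). Its distal exon was 153 bases long in the hindwing assembly and 439 in the forewing one, and the proximal exon 251 bases in the hindwing assembly and 261 in the forewing one. In both loci, then, the distal exon was the one of unlike length. At nscaf98:1663821-1673492 on the − strand, first exons 7725 bases apart, the distal share was 70.8% in hindwing buds (57.1 to 83.9) and 26.0% in forewing buds (15.3 to 39.3). The proximal exon was assembled at 141 bases in the hindwing library and at only 11 bases in the forewing library. At nscaf2780:223142-319373 on the − strand, a 10-exon locus with first exons 12990 bases apart, the distal share was 72.5% in hindwing buds (65.3 to 79.4) and 35.0% in forewing buds (28.3 to 42.3). The lengths were closest here: the distal exon had 314 bases in the hindwing assembly and 414 in the forewing one, and the proximal exon 260 bases in the hindwing assembly and 265 in the forewing one. At nscaf2529:294548-323006 on the − strand, first exons 7841 bases apart, the distal share was 80.3% in hindwing buds (75.4 to 84.5) and 46.3% in forewing buds (36.0 to 57.0), with a distal exon of 154 bases in the hindwing assembly and 417 in the forewing one. By fragments the distal share changed by 20.6 points there, against 34.0 points by FPKM.

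**Figure D5:**
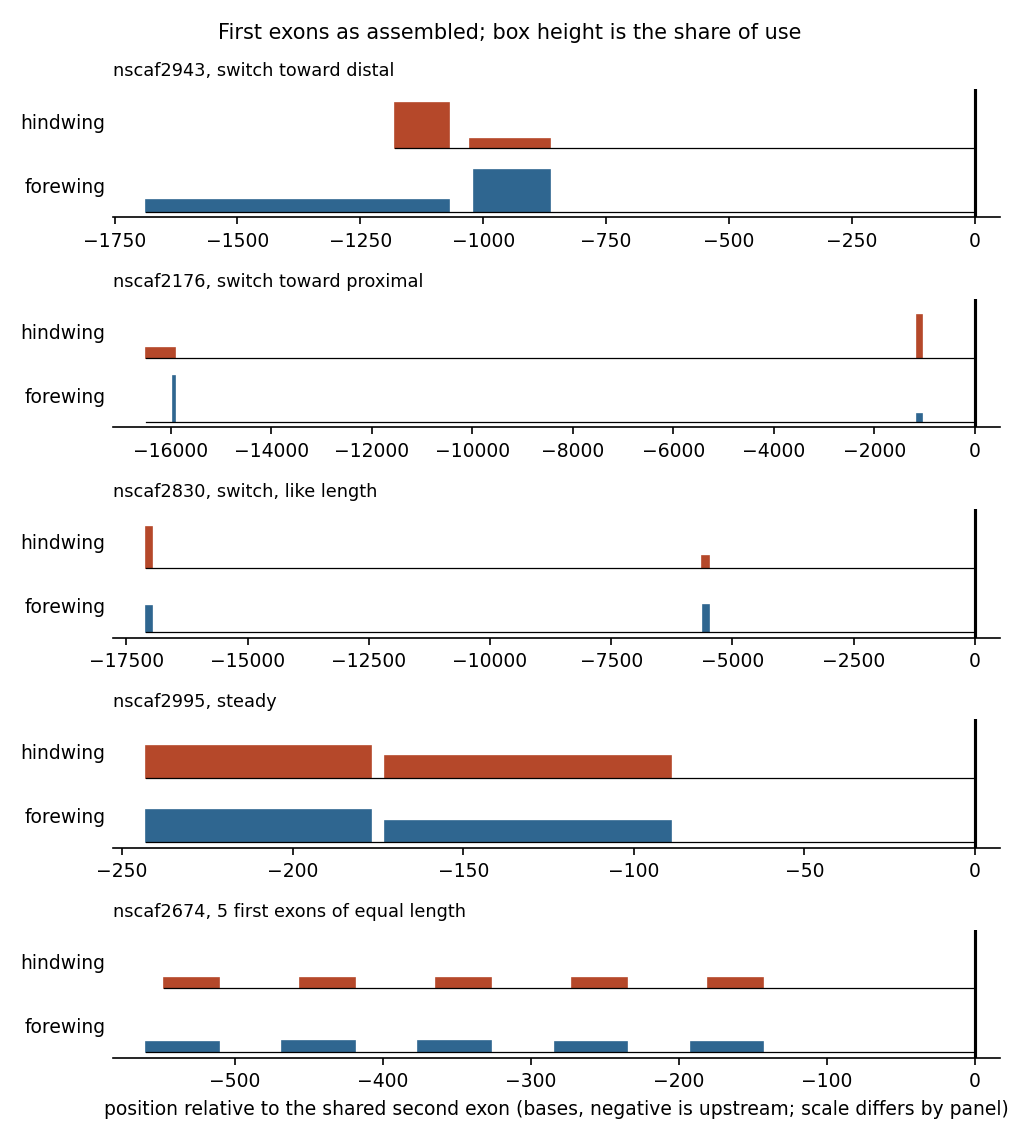
First exons of 5 loci drawn to scale by position relative to the shared second exon (black line at 0), in bases, with hindwing buds above forewing buds in each panel and box height for the share of use. In the first panel the distal box is 109 bases wide in the hindwing assembly and 616 bases in the forewing one, in the panels marked like length and steady the widths are alike, and in the last panel 5 boxes of equal width hold about 20% each.

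Some of the most abundant loci changed their proportions without changing the order of their first exons. By the level summed over the alternative first exons, the most abundant of the 184 loci lay at nscaf2529:257478-263959 on the − strand, with first exons 426 bases apart at their 5′ ends. Its distal exon (263550-263959) had 483.4 FPKM in hindwing buds and 974.8 FPKM in forewing buds, and its proximal exon (263321-263533) had 480.6 FPKM in hindwing buds and 207.7 FPKM in forewing buds. Use was even in hindwing buds, with a distal share of 50.1% (49.2 to 51.1), and mostly distal in forewing buds, with 82.4% (81.6 to 83.2). Its distal exon was 410 bases long in the hindwing assembly and 216 in the forewing one, and the proximal exon 120 bases in the hindwing assembly and 213 in the forewing one.

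The third most abundant by that sum, at nscaf2829:1485139-1498943 on the − strand, had first exons of like length 629 bases apart. The distal exon (1486873-1487053) had 591.5 FPKM in hindwing buds and 449.5 FPKM in forewing buds, and the proximal exon (1486232-1486424) had 241.8 FPKM in hindwing buds and 322.3 FPKM in forewing buds. The distal share was 71.0% in hindwing buds (69.5 to 72.4) and 58.2% in forewing buds (56.7 to 59.8). The change of 12.7 points had intervals that did not overlap, with at least 2026 estimated fragments in each exon in both libraries. The distal exon had 161 bases in the hindwing assembly and 181 in the forewing one, and the proximal exon 193 bases in the hindwing assembly and 169 in the forewing one.

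The next 3 largest changes without a switch, among loci with at least 5 FPKM in both libraries and with intervals apart, were these. At nscaf2842:1339813-1348728 on the + strand the distal share was 47.6% in hindwing buds (39.7 to 55.8) and 16.9% in forewing buds (11.8 to 23.1). At nscaf1681:2278100-2309585 on the + strand it was 82.3% in hindwing buds (77.0 to 87.3) and 51.8% in forewing buds (46.3 to 57.3). At nscaf2930:3616290-3627063 on the + strand it was 81.6% in hindwing buds (75.7 to 86.9) and 54.9% in forewing buds (45.9 to 64.0). All 3 favoured the distal exon more in hindwing buds, and all 3 had a first exon of unlike length. The distal exon was 425 bases long in the hindwing assembly and 993 in the forewing one at nscaf2842, and 379 bases in the hindwing assembly and 686 in the forewing one at nscaf1681. At nscaf2930 it was of like length, 252 bases in the hindwing assembly and 273 in the forewing one, while the proximal exon had 919 bases in the hindwing assembly and 91 in the forewing one. By fragments the change in proximal share at nscaf2930 was −17.6 points, against −26.8 points by FPKM.

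Shares moved farther at low levels. In 32 loci with under 5 FPKM over their alternative first exons the median of the largest share change was 13.9 points, in 94 loci from 5 to under 20 FPKM it was 7.09 points, and in 58 loci at 20 FPKM or more it was 5.27 points. Switches with intervals apart made up 6 of the 32, 17 of the 94 and 10 of the 58 loci. The fragments estimated in a first exon itself had a median of 59.8 for hindwing and 43.8 for forewing buds. Under 20 fragments lay in 84 first exons of hindwing buds and 103 of forewing buds.

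In the 7 loci with 3 first exons the most used exon differed in 4, with intervals apart in 3. One of these lay at nscaf2930:3263291-3300425 on the + strand, where the distal, middle and proximal exons took 14.3%, 34.9% and 50.9% in hindwing buds, against 47.9%, 37.7% and 14.4% in forewing buds. Only the outer exons traded places there, and the distal exon was 780 bases long in the hindwing assembly and 129 in the forewing one. At nscaf2855:6879990-6954940 on the + strand, with like lengths, the 3 exons took 53.7%, 27.2% and 19.1% in hindwing buds, against 53.3%, 34.3% and 12.4% in forewing buds. These 2 loci were chosen after their values were seen. The 2 loci with 5 first exons were of another kind. At nscaf2674:6419132-6424285 on the − strand the 5 first exons followed each other at exactly 92 bases, each 37 bases long in the hindwing assembly and 49 in the forewing one. Their usages were 4.54 FPKM in hindwing buds for each and 4.29 to 4.64 FPKM in forewing buds, so that each took close to 20%. At nscaf2873:60153-70966 on the + strand 5 first exons stood 258, 129, 129 and 280 bases apart, each 47 bases long in the hindwing assembly and 55 in the forewing one. Each had 3.18 FPKM in hindwing buds and 3.05 to 3.30 FPKM in forewing buds. Both of these loci are counted among the 49 switches, although their largest share changes were 0.817 and 1.22 points and their intervals overlapped. Without loci that had first exons of equal length, 47 switches were left. First exons of equal length within each assembly were found in 4 loci in all. Whether these exons are copies that share reads was not tested, since no sequence was at hand, so their separate usages remain uncertain.

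Few loci with alternative first exons differed in level between the wing buds. With 1 added to each level, 7 of 184 loci (3.80%) were at least 2-fold higher in the hindwing library, against 5.11% of all 10498 loci, and 3 (1.63%) were at least 2-fold lower, against 5.19%. Of these 10 loci, 7 changed their shares by under 10 points, and in 5 the alternative first exons alone also differed 2-fold. The largest fall in the hindwing library was at nscaf3031:4299233-4380316 on the + strand, with 10.6 FPKM in hindwing buds and 35.8 FPKM in forewing buds. At nscaf2964:4515394-4527287 on the − strand the locus had 4.18 FPKM in hindwing buds and 10.6 FPKM in forewing buds. Their largest share changes were 9.04 and 3.55 points, so that both first exons were lower together. Both loci were chosen from the 10 after their values were seen.

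Among single first exons more were lower than higher in the hindwing library, and both shares were near the background. Usage was at least 2-fold higher in the hindwing library for 13 of 381 first exons (3.41%), against 3.99% of 10711 first introns in both assemblies, and at least 2-fold lower for 23 (6.04%), against 6.19%. Among the 175 pairs, 7 distal and 5 proximal exons were higher, and 14 distal and 9 proximal exons were lower.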

How the data were processed

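Each deposited assembly lists transcripts and exons of 1 library, and gives each transcript an FPKM, a lower and an upper confidence bound and a coverage. Per the study's methods, the authors trimmed low-quality reads, mapped pairs with TopHat and assembled transcripts with Cufflinks (2.1.1 in the submitters' processing notes, which also name Cuffdiff). The kit (11 cycles of PCR) does not mark strand, so strand comes from splice sites. The deposited score column ranks forms of a gene and was not used. Coordinates are printed as deposited, 1-based, on a build not given in the sources used here. The RefSeq gene table at hand belongs to another assembly and shares no identifier with the transcripts, so neither gene names nor sequences are given, and coding and untranslated parts are not known.

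Usage was the midpoint of the bounds, summed. The interval of a share ran from low/(low + other highs) to high/(high + other lows). A switch was a different most used first exon, and intervals were apart where they did not overlap. Without molecular identifiers, copies made by PCR count as fragments, and intervals hold only the error of counting and assigning fragments inside 1 library. Log2 ratios were of midpoints + 1, hindwing over forewing, with no rescaling. Depth was estimated as the number of fragments that made bounds under 30 fragments whole within 0.05 (96.5% of 13358 hindwing and 96.2% of 9110 forewing bounds), and fragments in an exon were midpoint times exon length times depth.

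Loci were given by position where both libraries had at least 5 FPKM: the 5 largest switches with intervals apart in each direction, the 4 largest changes with intervals apart and no switch, the 4 most abundant steady loci, the 3 most abundant by the sum over their alternative first exons, the 2 widest and 2 narrowest spacings, and the 2 with most first exons. Members and rules were chosen with earlier results of these data known. The code was tested on simulated data. Work used Python 3.11.15, numpy 2.4.6, scipy 1.17.1 and matplotlib 3.10.9.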

Additional observations from a re-analysis of the deposited data

How the results depend on the processing

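No paired analysis was possible because each wing bud had 1 library. Deposited FPKM, fragments or the most abundant transcript in place of the summed midpoint gave 49 to 53 switches, against 49, and a median largest share change of 7.04 to 7.69 points, against 7.58. Matching by overlap, gaps of at least 100 bases, first exons of at least 50 bases, minimum levels, a minimum share and a single acceptor each kept every count within 1.5 times. With gaps of at least 500 bases, 125 loci were left, and 21 of them were switches with intervals apart, against 33 of 184. Of the settings added after the data were seen, like lengths left 80 loci, 11 switches and 3 with intervals apart. The same intron chains in both assemblies left 123 loci, 28 switches and 19 with intervals apart. At least 20 fragments in each first exon left 108 loci, 22 switches and 17 with intervals apart. Switches with intervals apart made up 17.9% of the 184 loci and 3.75% of those of like length, and the cause was not tested. Leaving out first exons that are internal elsewhere, or loci with first exons of equal length, kept every count within 1.5 times. A pseudocount of 5 left 5 loci with a 2-fold difference in level, against 10, and the other settings gave 9 to 13. The median distance was 4825 to 5026.5 bases by donor sites or the ends of either assembly. For the 25 loci given by position, the 75 largest share changes recomputed under the 3 other measures of use moved by no more than the reach of the share interval to either side in 64 and by more in 11, with 0 changes of sign among those with intervals apart. No error between animals can be given.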
